A study of Mus musculus with 4 samples.

Results

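The genes described here encode the collagens, proteoglycans, glycoproteins and matrix-processing enzymes of the extracellular matrix, the fibre and sheet network that surrounds cells, together with a pair of fibroblast surface proteins. They are a list of 38 named mouse genes, found on the arrays by matching the accession of each probe to a RefSeq symbol, and they stand among 26378 genes tested. All 38 had at least 1 probe, 59 probes in all, and 32 passed the filter on dim signal. Where a gene had several probes the brightest was read, and all probes are given for Col6a3.

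RNA of isolated mouse pancreatic islets was hybridised to 4 single-colour Agilent arrays, each with Cy3-labelled RNA of 1 mouse. The 2 Rb-deficient mice had the genotype Pdx1-Cre:Rbf/f, in which Cre recombinase deletes floxed alleles of the retinoblastoma gene. The 2 mice called wild type in the labels carried Pdx1-Cre alone, so all 4 mice had the transgene. Age and sex are not given in the sources used here. Pdx1 is active in the pancreatic epithelium, from which endocrine, acinar and duct cells arise, while fibroblasts, pericytes and endothelium come from other lineages.

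Islets are wrapped in a thin capsule and threaded by capillaries. The capillary walls carry basement membrane, a sheet of collagen IV, laminins and nidogen on which beta cells rest, and which in mouse islets is largely made by endothelial cells. Fibrillar collagens I, III and V, small proteoglycans such as decorin and the beaded filaments of collagen VI are products of fibroblasts and related mesenchymal cells and fill the space between vessels, ducts and exocrine tissue. In RNA of whole islets, fewer cells of a type and less RNA per cell cannot be told apart.

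Signal is given as log2 of the processed intensity relative to the array's own 75th percentile, so 0 is that percentile and 1 unit is a 2-fold step. Levels of different probes are not compared with each other. Well above background were 59.9% and 59.0% of probes on Rb-deficient arrays 1 and 2, against 76.5% and 59.4% on wild type arrays 1 and 2. On wild type array 1 alone, 14.3% of all probes were well above background, against 0.488% to 0.839% that were so on only 1 of the other arrays. Xist, which silences an X chromosome in females, read -0.65 and -1.35 on the Rb-deficient arrays, against -7.40 and -0.84 on wild type arrays 1 and 2, so wild type array 1 also stood apart in a sex-linked transcript. Rb1 read -0.48 and -0.90 on the Rb-deficient arrays and 0.28 and 0.86 on the wild type arrays, a difference of -1.26 with a standard error of 0.31 (limma, adjusted p 0.735). The position of its probe relative to the floxed exon is not given in the sources used here, and it is not known whether the value checks the deletion.

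No matrix gene changed past the threshold. In a limma fit of all 26378 genes, with p-values adjusted by the Benjamini-Hochberg method, 0 of the 32 matrix genes had an adjusted p under 0.05, where 0% of all genes did, and the adjusted p values of the 32 lay between 0.45 and 1.00. At an unadjusted p under 0.05 stood 2 of the 32, Col6a3 and Col8a1, against 5.66% of all genes. By mean, 16 were higher and 16 lower in Rb-deficient islets, and 41.9% of all genes were higher. This split depended on the scaling, with 22 of 32 higher after quantile normalization and 26 of 32 after scaling by the array median, which moved the median of all genes to 0.37. The median log2 difference was 0.01 over the matrix genes and -0.07 over all genes tested. Both Rb-deficient arrays lay above both wild type arrays for 6 matrix genes, against 15.3% of all genes, and below both for 5, against 20.7%. The groups overlapped for the other 21.

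**Figure D1:**
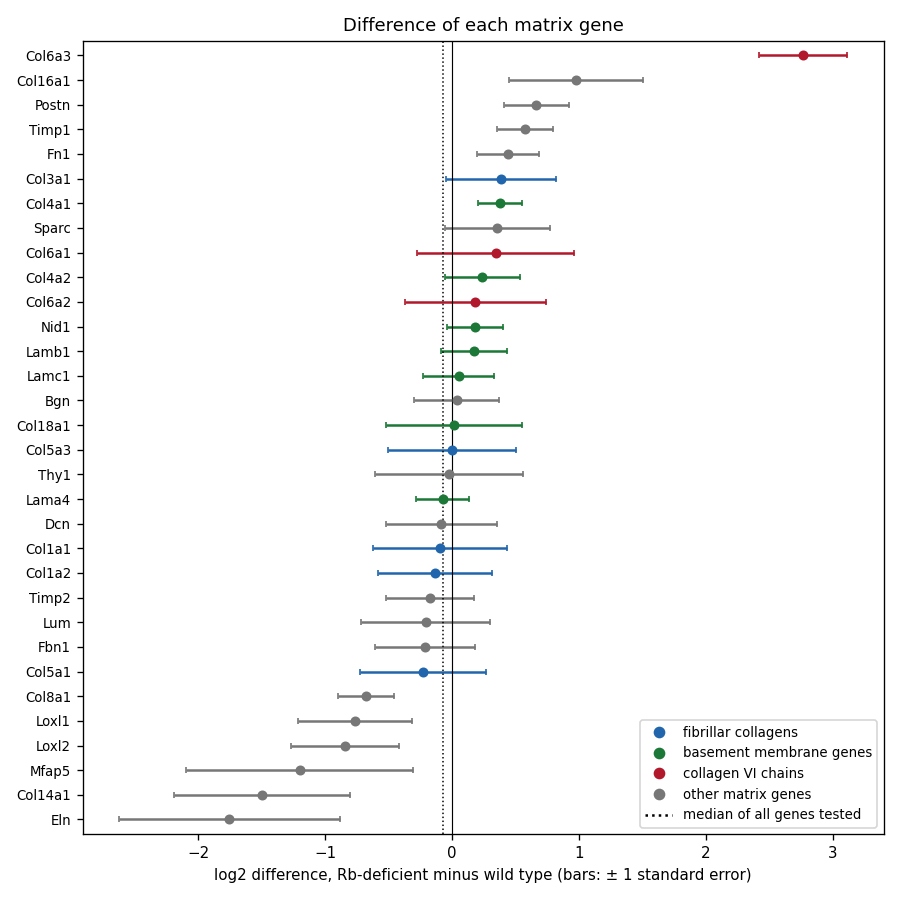
Log2 difference, Rb-deficient minus wild type (x axis, bars are 1 standard error of the limma fit, 2 arrays a group), of the 32 matrix genes tested, ordered by size. Col6a3 stands at 2.77 and Eln, not well above background on either Rb-deficient array, at -1.75. Most others lie within 1 unit of 0, and the dotted line is the median of all genes tested at -0.07.

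Differences of at least 2-fold were seen for 1 matrix gene that was higher, Col6a3, and for 3 that were lower, Col14a1, Eln and Mfap5. Eln passed the filter through wild type alone, and Eln and Mfap5 stood far higher on wild type array 1 than on the other arrays. Over all genes, 1.7% were at least 2-fold higher and 8.03% at least 2-fold lower. For 21 of the 32 genes the difference between the group means was smaller than the gap between the 2 Rb-deficient mice. This was not counted over all genes. The median absolute gap between the Rb-deficient mice was 0.72 for matrix genes and 0.31 for all genes. The median absolute difference was 0.23 for matrix genes and 0.24 for all genes, so in both sets it was the smaller of the 2 medians.

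Collagen VI is a heterotrimer of chains encoded by Col6a1, Col6a2 and Col6a3, which assemble in equal number before the beaded filaments form. Col6a3 read 0.40 and -0.15 on the Rb-deficient arrays, against -2.32 and -2.96 on the wild type arrays. Both Rb-deficient values lay far above both wild type values. Array 2 minus array 1 was -0.55 in Rb-deficient and -0.64 in wild type islets, against median absolute gaps of 0.31 and 0.28 over all genes. The means were 0.13 ± 0.39 (SD, n = 2) in Rb-deficient islets and -2.64 ± 0.45 (SD, n = 2) in wild type islets, a 6.81-fold difference. On the log2 scale this was 2.77 with a standard error of 0.35 (limma, adjusted p 0.446), which ranked 159th of 26378 genes by size and 96th by p. With normexp background correction the difference was 2.00 on the log2 scale. It passed the threshold only when arrays were scaled by their median, where 480 genes did.

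The other probe annotated to the same Col6a3 transcript had a lower mean in Rb-deficient islets, a difference of -2.30, through wild type array 1 alone. It gave -6.10 and -5.60 on the Rb-deficient arrays, neither well above background, against -0.85 and -6.24 on the wild type arrays. Of these 4 values only the one on wild type array 1 was well above background, so that the probe did not pass the filter. This dim probe therefore does not back the difference of Col6a3, which rests on the brighter probe alone. Where on the transcript either probe lies is not known here.

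The partner chains did not show the pattern of the brighter Col6a3 probe. Col6a1 read -1.88 and -0.31 on the Rb-deficient arrays and -1.70 and -1.18 on the wild type arrays. Col6a2 read -4.20 and -2.76 on the Rb-deficient arrays and -3.80 and -3.52 on the wild type arrays. For both, Rb-deficient array 1 was lowest and Rb-deficient array 2 highest, with wild type between. Their log2 differences were 0.34 and 0.18 with standard errors of 0.62 and 0.55. For Col6a3 it was Rb-deficient array 1 that was the higher of its pair, by 0.55 log2 units. The difference in response between the 3 chains was not tested.

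**Figure D2:**
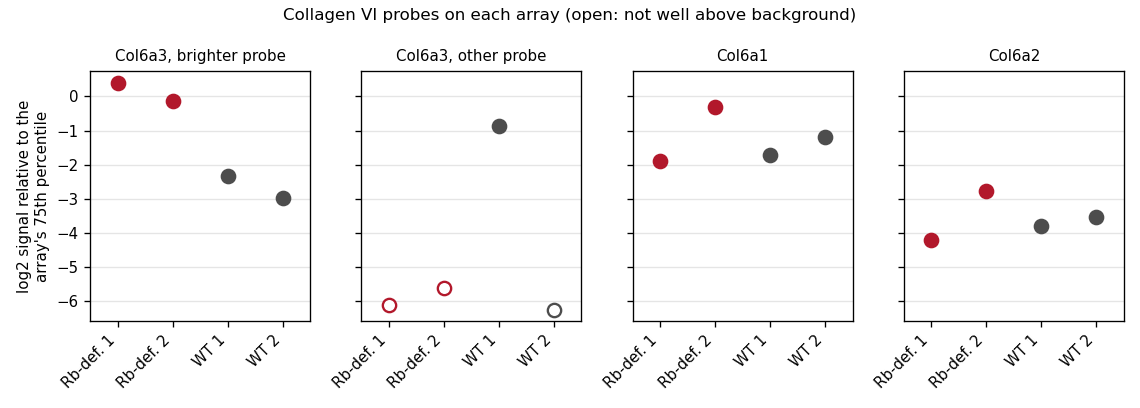
Log2 signal relative to the array's 75th percentile (y axis) of the 2 Col6a3 probes and of the Col6a1 and Col6a2 probes on Rb-deficient arrays 1 and 2 and wild type (WT) arrays 1 and 2, with open circles for signal not well above background. The brighter Col6a3 probe was higher on both Rb-deficient arrays, its other probe was well above background on wild type array 1 alone, and Col6a1 and Col6a2 were highest on Rb-deficient array 2. Heights of different probes are not comparable.

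Col6a1 and Col6a2 are neighbours on chromosome 10 with no protein-coding gene between them, while Col6a3 lies on chromosome 1, apart from the other 2 chains. Their promoter windows are shown because the chains of a trimer read differently here. The sequences are those of RefSeq on GRCm38.p6, 250 bases before to 50 bases after the annotated start, on the strand of the gene (minus for all 3), in lower case with GC boxes (GGGCGG on either strand) in capitals. The windows are chr1:90843922-90844221 for Col6a3, chr10:76725995-76726294 for Col6a1 and chr10:76623355-76623654 for the first of 2 listed for Col6a2.
Col6a3: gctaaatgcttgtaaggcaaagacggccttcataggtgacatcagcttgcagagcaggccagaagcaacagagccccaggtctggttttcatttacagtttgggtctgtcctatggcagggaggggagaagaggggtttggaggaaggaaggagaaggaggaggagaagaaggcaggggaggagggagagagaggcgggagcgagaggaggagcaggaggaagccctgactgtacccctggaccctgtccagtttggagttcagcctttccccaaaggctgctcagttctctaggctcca
Col6a1: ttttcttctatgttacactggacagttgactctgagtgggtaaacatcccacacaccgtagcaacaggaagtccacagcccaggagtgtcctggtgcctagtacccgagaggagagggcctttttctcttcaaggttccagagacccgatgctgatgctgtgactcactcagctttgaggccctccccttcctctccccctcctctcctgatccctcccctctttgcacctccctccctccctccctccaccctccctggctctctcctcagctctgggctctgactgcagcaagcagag
Col6a2: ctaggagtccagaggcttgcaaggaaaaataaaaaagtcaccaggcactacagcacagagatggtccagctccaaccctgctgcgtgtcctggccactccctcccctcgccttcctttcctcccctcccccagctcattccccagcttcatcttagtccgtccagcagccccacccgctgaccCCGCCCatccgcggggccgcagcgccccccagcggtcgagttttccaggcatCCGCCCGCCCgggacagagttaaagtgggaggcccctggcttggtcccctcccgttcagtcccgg
The Col6a2 window holds 3 GC boxes, all on the strand opposite the gene (CCGCCC as printed) and partly overlapping, and those of Col6a3 and Col6a1 hold none. No TATA box (TATAAA) or CCAAT box (CCAAT) was found in these 3 windows either, nor an E2F-like site in the spelling searched below.

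Fibrillar collagens are the ropes of connective tissue, with Col1a1 and Col1a2 encoding the chains of collagen I, Col3a1 that of collagen III, and Col5a1, Col5a2 and Col5a3 those of collagen V, which sets fibril diameter. Of the 6, 5 were tested, 1 higher and 4 lower in mean, with a median log2 difference of -0.10. The scaling turned this, to a median of 0.40 with 1 lower after quantile normalization and of 0.34 with 0 lower after scaling by the array median. All 5 had their lowest value on Rb-deficient array 1 and their highest on Rb-deficient array 2, and both wild type arrays fell between.

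Col1a1 read -4.16 and -2.80 on the Rb-deficient arrays, against -3.27 and -3.50 on the wild type arrays. Col1a2 read -0.26 and 0.88 on the Rb-deficient arrays, against 0.43 and 0.47 on the wild type arrays. The wild type mice were close together while the Rb-deficient mice lay on either side of them. Col3a1 read -1.72 and -0.62 on the Rb-deficient arrays and -1.55 and -1.57 on the wild type arrays. Col5a1 read -4.55 and -3.30 on the Rb-deficient arrays and -3.54 and -3.85 on the wild type arrays. Col5a3 read -3.92 and -2.68 on the Rb-deficient arrays and -3.10 and -3.50 on the wild type arrays. In all 5 the groups overlapped. The gap between the Rb-deficient arrays was 1.11 to 1.36 log2 units, against gaps of -0.40 to 0.04 from wild type array 1 to wild type array 2. The log2 differences between groups lay from -0.23 to 0.39 with standard errors of 0.43 to 0.53 (limma, adjusted p 0.87 to 1.00).

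Without Rb-deficient array 1 the median of the fibrillar collagens was 0.58, and without Rb-deficient array 2 it was -0.71, so its direction also turned with the Rb-deficient mouse that was kept. Col5a2, a neighbour of Col3a1 on chromosome 1 with no protein-coding gene between them, did not pass the filter. Its probe read -7.42 and -5.42 on the Rb-deficient arrays and -4.16 and -6.48 on the wild type arrays, and it was well above background on wild type array 1 alone.

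**Figure D3:**
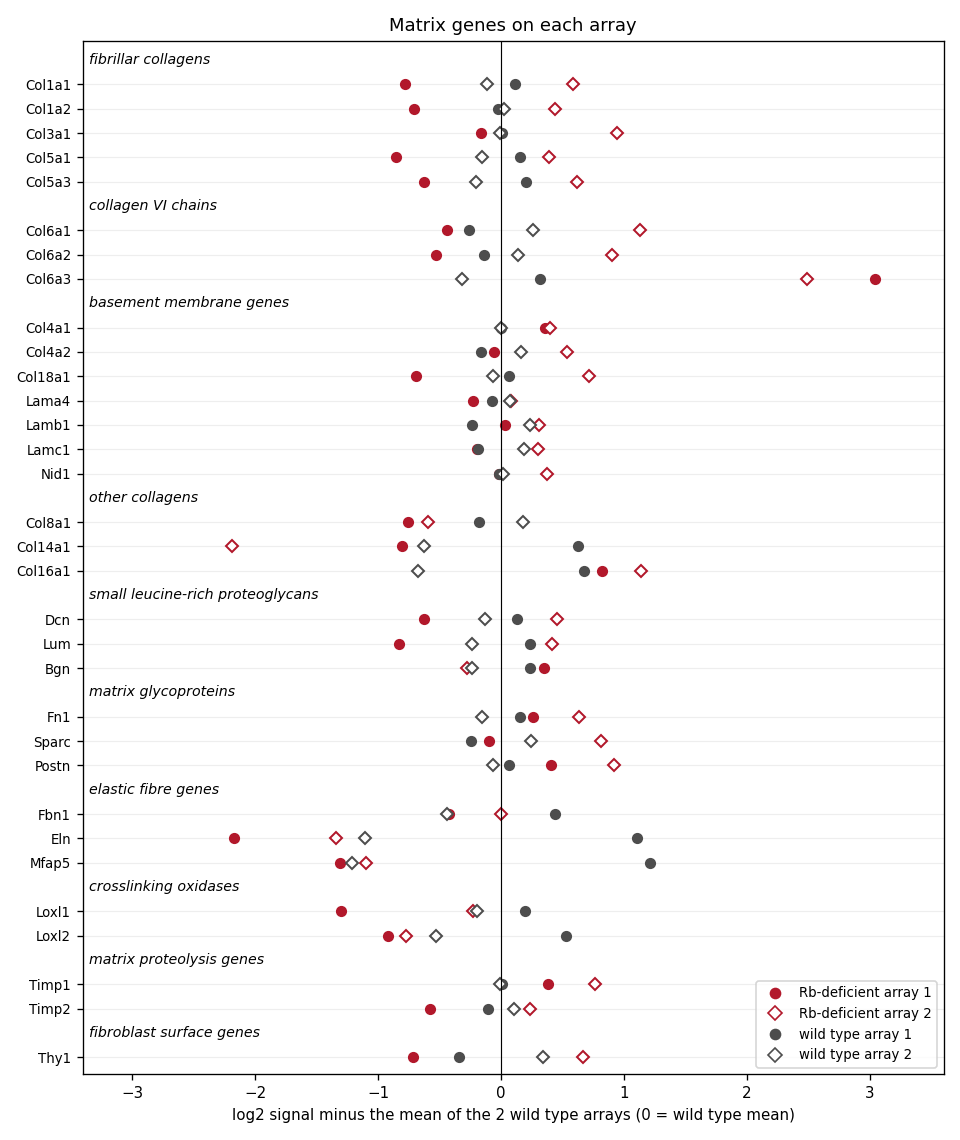
Log2 signal of each of the 32 matrix genes tested on every array, minus the mean of the 2 wild type arrays (x axis), by functional group, with Rb-deficient arrays in red and wild type arrays in grey. Fibrillar collagens, Col6a1, Col6a2, Dcn, Lum and Thy1 show Rb-deficient array 1 on the left and Rb-deficient array 2 on the right of wild type, Col6a3 has both red points on the right, and Eln and Mfap5 have wild type array 1 far to the right of the rest.

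Among other products of fibroblasts, Dcn, Lum and Thy1 showed this spread between the Rb-deficient mice, while Bgn and Col14a1 had the opposite gap and Fn1, Fbn1 and Mfap5 had smaller gaps. Decorin (Dcn) and lumican (Lum), small leucine-rich proteoglycans that bind collagen fibrils, are neighbours on chromosome 10. Dcn read -0.76 and 0.33 on the Rb-deficient arrays, against -0.01 and -0.26 on the wild type arrays. Lum read -3.91 and -2.66 on the Rb-deficient arrays, against -2.84 and -3.31 on the wild type arrays. In both genes wild type lay between the Rb-deficient mice. Biglycan (Bgn), a proteoglycan of the same family, went the other way, with -0.38 and -1.01 on the Rb-deficient arrays and -0.49 and -0.97 on the wild type arrays. The differences of the 3 genes were between -0.21 and 0.04.

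Thy1, a glycoprotein on the surface of fibroblasts and of some neurons and T cells, read -0.83 and 0.55 on the Rb-deficient arrays, against -0.46 and 0.23 on the wild type arrays. Its groups overlapped, with a log2 difference of -0.03 and a standard error of 0.58. Pdgfra, the PDGF receptor that marks many fibroblasts, was not well above background on any array, with values of -7.23 and -6.95 on the Rb-deficient arrays and -7.36 and -7.39 on the wild type arrays. The list thus holds signal for fibroblast products but not for this receptor.

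Over the 32 matrix genes, Rb-deficient array 2 was above Rb-deficient array 1 in 29, where 44.1% of all genes tested were. Wild type lay wholly between a lower Rb-deficient array 1 and a higher Rb-deficient array 2 in 15 of the 32, against 7.22% of all genes. The median gap from Rb-deficient array 1 to array 2 was 0.55 for the matrix genes and -0.06 for all genes. With each array scaled to its median, 29 of 32 were again higher on Rb-deficient array 2, but 65.7% of all genes were too, and wild type lay between in 9, against 2.76% of all genes. This pattern was seen in these data and then counted, and it carries no test.

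**Figure D4:**
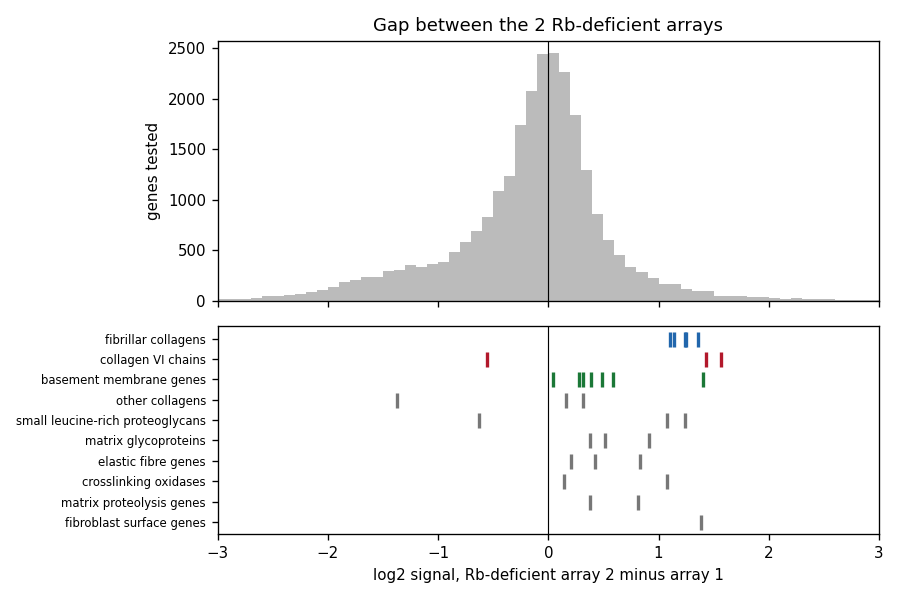
Gap in log2 signal between the 2 Rb-deficient mice, array 2 minus array 1 (x axis), as a histogram of all 26378 genes tested (top, number of genes in bins of 0.1, with 134 genes beyond 3 in either direction not drawn) and as a tick for each matrix gene by group (bottom). Ticks lie right of 0 for 29 of the 32 matrix genes, and those of the fibrillar collagens lie between 1.11 and 1.36.

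Apart from Col18a1, basement membrane genes differed less between the Rb-deficient mice than fibrillar collagens did, by 0.04 to 0.59 log2 units. Of 8 listed, 7 were tested, 6 higher and 1 lower, with a median log2 difference of 0.17. With the mean of each gene's probes in place of the brightest, the median was 0.02 and 3 of the 7 were lower. Col4a1 and Col4a2 encode the chains of the main collagen IV of basement membranes. Col4a1 read 1.88 and 1.92 on the Rb-deficient arrays, against 1.52 and 1.52 on the wild type arrays. Both Rb-deficient mice lay above both wild type mice, 1.30-fold in mean, with a log2 difference of 0.38 and a standard error of 0.17 (limma, adjusted p 0.863, unadjusted p 0.096). Col4a2 read 0.78 and 1.36 on the Rb-deficient arrays, against 0.67 and 0.99 on the wild type arrays. It was 1.18-fold higher in mean and its groups overlapped.

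Col4a1 and Col4a2 are head-to-head neighbours on chromosome 8, read from opposite strands, and their promoter windows overlap. The windows are shown because this pair shares its start region. They are chr8:11312777-11313076 on the minus strand for Col4a1 and chr8:11312555-11312854 on the plus strand for Col4a2 (RefSeq, GRCm38.p6). The 78 bases that the windows share are in capitals, and are the reverse complement of each other.
Col4a1: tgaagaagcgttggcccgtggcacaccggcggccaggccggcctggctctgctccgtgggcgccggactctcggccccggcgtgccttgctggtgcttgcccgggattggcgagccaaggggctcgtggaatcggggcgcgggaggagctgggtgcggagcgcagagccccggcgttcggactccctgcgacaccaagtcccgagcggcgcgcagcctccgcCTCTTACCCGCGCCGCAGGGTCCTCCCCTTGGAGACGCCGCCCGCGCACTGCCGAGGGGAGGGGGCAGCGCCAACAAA
Col4a2: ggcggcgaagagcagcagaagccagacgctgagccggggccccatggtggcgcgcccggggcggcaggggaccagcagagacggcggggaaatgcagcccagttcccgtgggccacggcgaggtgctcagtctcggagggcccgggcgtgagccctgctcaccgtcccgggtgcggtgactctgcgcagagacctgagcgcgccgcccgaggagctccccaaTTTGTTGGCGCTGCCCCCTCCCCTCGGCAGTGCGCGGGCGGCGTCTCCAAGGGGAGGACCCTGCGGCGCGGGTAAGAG
The difference was 0.38 for Col4a1 and 0.24 for Col4a2, and each was higher on Rb-deficient array 2 than on either wild type array.

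The laminin chains Lama4, Lamb1 and Lamc1, which join into the cross-shaped laminin 411 of capillaries, are given by their brightest probes first. Lamb1 read 0.61 and 0.89 on the Rb-deficient arrays, against 0.34 and 0.82 on the wild type arrays. Lamc1 read 0.58 and 1.07 on the Rb-deficient arrays, against 0.59 and 0.96 on the wild type arrays. Lama4 read -1.47 and -1.16 on the Rb-deficient arrays, against -1.31 and -1.16 on the wild type arrays. In each of the 3 the groups overlapped, and the differences were 0.17, 0.05 and -0.08 with standard errors from 0.21 to 0.28. Other probes of these chains, well above background on all 4 arrays, read differently. The second Lama4 probe gave -3.70 and -4.21 on the Rb-deficient arrays, against -4.48 and -2.37 on the wild type arrays. The other 2 Lamb1 probes differed by -0.07 and -0.56, the last with both Rb-deficient arrays below, and the second Lamc1 probe by -0.39. Nid1, the nidogen that links laminin to collagen IV, read -0.02 and 0.37 on the Rb-deficient arrays, against -0.02 and 0.01 on the wild type arrays.

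Col18a1 and Col15a1 encode collagens of the basement membrane zone, the first of which releases the fragment endostatin. Col18a1 read -2.21 and -0.80 on the Rb-deficient arrays, against -1.46 and -1.58 on the wild type arrays. It had the wide spread of the fibrillar collagens, with a gap of 1.41 between the Rb-deficient mice, unlike the other basement membrane genes tested. Col15a1 did not pass the filter, since its brighter probe was well above background only on Rb-deficient array 2 and wild type array 1, with -5.18 and -3.94 on the Rb-deficient arrays and -4.22 and -5.25 on the wild type arrays. Without Rb-deficient array 1 the median of the basement membrane genes was 0.37, and without Rb-deficient array 2 it was -0.05.

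Among the other collagens, Col8a1 was lower and Col16a1 higher on both Rb-deficient arrays. Col8a1, a short-chain collagen of vessel walls, read 1.42 and 1.58 on the Rb-deficient arrays, against 2.00 and 2.36 on the wild type arrays. It was 1.60-fold lower, with a log2 difference of -0.68 and a standard error of 0.22 (limma, adjusted p 0.863, unadjusted p 0.041). Col16a1, a collagen associated with fibril surfaces, read 1.62 and 1.93 on the Rb-deficient arrays, against 1.47 and 0.12 on the wild type arrays. Its difference of 0.98 came with a standard error of 0.53, and wild type array 1 lay close to the Rb-deficient values. The difference was 0.30 without wild type array 2 and 1.65 without wild type array 1.

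Col14a1, another fibril-associated collagen, read -2.02 and -3.39 on the Rb-deficient arrays, against -0.58 and -1.83 on the wild type arrays. The groups did not overlap, but -2.02 and -1.83 were near each other, and the 2.82-fold lower mean had a standard error of 0.69 on the log2 scale. The log2 difference was -2.18 without Rb-deficient array 1, -0.81 without Rb-deficient array 2, -0.87 without wild type array 1 and -2.12 without wild type array 2. Unlike the fibrillar collagens, Col14a1 was lower on Rb-deficient array 2 than on array 1. Col12a1, the close relative of Col14a1, had 2 probes and neither was well above background on any array.

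The 3 matrix glycoproteins were higher in mean in Rb-deficient islets, by 1.28-fold to 1.59-fold. Periostin (Postn), a matricellular protein of remodelling tissue, read -2.73 and -2.22 on the Rb-deficient arrays, against -3.07 and -3.20 on the wild type arrays. Both Rb-deficient mice were above both wild type mice, with a difference of 0.66 and a standard error of 0.26 (limma, adjusted p 0.863). The other 2 Postn probes that passed the filter differed by -0.06 and -0.85, so the probes of this gene disagree. Fibronectin (Fn1), the adhesive scaffold of early matrix, read -2.40 and -2.03 on the Rb-deficient arrays, against -2.51 and -2.81 on the wild type arrays, without overlap. Sparc, a collagen-binding protein that is abundant in islet stroma, read 5.43 and 6.34 on the Rb-deficient arrays, against 5.28 and 5.77 on the wild type arrays. Its 2 probes gave the same difference of 0.36.

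The 3 elastic fibre genes were lower in mean in Rb-deficient islets, with wild type array 1 highest for each. Elastin (Eln) read -6.12 and -5.28 on the Rb-deficient arrays, neither well above background, against -2.84 and -5.05 on the wild type arrays. Against the wild type mean it was at least 2.51-fold lower. The floor on each Rb-deficient array was the dimmest signal still well above background there, or the Eln signal where that was brighter. This bound rests on wild type array 1, since wild type array 2 lay near the Rb-deficient values. Mfap5, a microfibril component, read -4.37 and -4.17 on the Rb-deficient arrays, against -1.85 and -4.28 on the wild type arrays. Wild type array 2 lay beside the Rb-deficient values, and without wild type array 1 the difference of Mfap5 was 0.01 in place of -1.20. For Eln it was -0.65 without wild type array 1 in place of -1.75. Fibrillin-1 (Fbn1), the core of the microfibril, read -4.62 and -4.19 on the Rb-deficient arrays, against -3.75 and -4.64 on the wild type arrays.

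The oxidases that crosslink collagen and elastin followed a similar order. Loxl2, which crosslinks collagen IV, read 0.01 and 0.15 on the Rb-deficient arrays, against 1.45 and 0.39 on the wild type arrays. Both probes of Loxl2 were lower on both Rb-deficient arrays, with log2 differences of -0.84 and -0.99, and that of the brighter probe was -0.31 without wild type array 1. Loxl1, needed for elastic fibres, read -4.83 and -3.76 on the Rb-deficient arrays, against -3.34 and -3.72 on the wild type arrays, where -3.76 and -3.72 are nearly equal. Lox itself had 2 probes, both well above background on wild type array 1 alone, and was not tested.

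Among proteases and their inhibitors, Timp1, an inhibitor of matrix metalloproteinases, read -0.84 and -0.46 on the Rb-deficient arrays, against -1.21 and -1.23 on the wild type arrays. Both Rb-deficient mice lay above the wild type pair, 1.49-fold in mean, with a difference of 0.57 and a standard error of 0.22 (limma, adjusted p 0.863, unadjusted p 0.062). Timp2, an inhibitor that also helps activate Mmp2, read 2.27 and 3.09 on the Rb-deficient arrays, against 2.75 and 2.96 on the wild type arrays, and its groups overlapped. Mmp2, the gelatinase of stromal cells, was not well above background on any array.

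Of the 38 genes, 6 were thus not tested, namely Col5a2, Col12a1, Col15a1, Lox, Mmp2 and Pdgfra. A gene could pass through the group in which it was brighter, which was so for Eln alone. Among the 18 matrix genes with several probes, 10 had probes that differed in sign, most with at least 1 dim probe. Of the 59 probes, 9 were well above background on wild type array 1 alone, in 8 genes, and none on any other array alone.

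The wider pathway gave no called gene either. Of 16 collagen synthesis and processing genes tested, such as prolyl and lysyl hydroxylases and the chaperone Serpinh1, 7 were higher, 9 lower and 0 called, with a median of -0.12. Bmp1, a procollagen protease, had the smallest p of this list, at 3.73 and 3.19 on the Rb-deficient arrays and 3.97 and 4.02 on the wild type arrays. P3h2, a prolyl hydroxylase of collagen, read -3.78 and -3.98 on the Rb-deficient arrays, against -2.09 and -3.83 on the wild type arrays, so only wild type array 1 stood apart. Of 16 other collagen genes 3 were higher, 13 lower and 0 called, with a median of -0.30. Col9a3, a chain of the cartilage collagen IX, read -3.74 and -5.02 on the Rb-deficient arrays, against -1.72 and -3.02 on the wild type arrays, a difference of -2.01. Col6a4, a further collagen VI chain, passed the filter through wild type alone. It read -6.72 and -4.29 on the Rb-deficient arrays, only 1 of them well above background, against -3.56 and -2.45 on the wild type arrays. Col6a6, another collagen VI chain that differed by -2.54, and Col8a2 also passed through wild type alone. Col6a4, Col6a6 and Col8a2 are among the 13 lower, while Col4a3, among the 3 higher, passed through Rb-deficient alone.

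Of 10 other basement membrane genes 2 were higher, 8 lower and 0 called, with a median of -0.22. The largest difference there was in Lamb3, a chain of the laminin of epithelia such as ducts, which read -3.54 and -4.06 on the Rb-deficient arrays, against -1.93 and -1.86 on the wild type arrays. Both Rb-deficient mice were far below both wild type mice, with a difference of -1.91 and a standard error of 0.26 (limma, adjusted p 0.46). Lamc3, another laminin chain, passed the filter through wild type alone, at -5.90 and -4.76 on the Rb-deficient arrays, only 1 of them well above background, against -3.94 and -3.89 on the wild type arrays. Itgb4, the integrin chain that binds the laminin of Lamb3, read -1.21 and -1.42 on the Rb-deficient arrays, against -0.66 and -0.16 on the wild type arrays. The difference of Itgb4 was -0.91. Over 15 collagen and laminin receptors tested, 6 were higher, 9 lower and 0 called. Itga5, a chain of the fibronectin receptor, was well above background on both wild type arrays but only 1 of the Rb-deficient arrays. The same held for Itga2 and Itga11, and all of these were among the 9 lower. Of 9 duct markers 7 were lower and 2 higher, where 41.9% of all genes were higher. Sox9 differed by -0.97 and Muc1 by -1.38, while Krt19 differed by 0.79, Epcam by 0.39, Krt7 by -0.09 and Krt18 by -0.05. Both Rb-deficient arrays lay above both wild type arrays for Epcam, while the groups overlapped for Krt19, Krt7 and Krt18. Krt19, Epcam, Krt7 and Krt18 were chosen after their values were seen. The summed signal of the list was 74.2 and 67.0 on the Rb-deficient arrays, against 83.8 and 69.6 on the wild type arrays, in units of the 75th percentile. Most of this sum came from Krt18, which read 5.93 and 5.63 on the Rb-deficient arrays, against 5.93 and 5.74 on the wild type arrays. The part of the duct markers in the result was not tested.

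Of 23 other matrix glycoproteins and proteoglycans tested, 8 were higher, 15 lower and 0 called, with a median of -0.17. Ogn and Smoc2, among the 15 lower, passed the filter through wild type alone. Ltbp2, a relative of fibrillin that binds microfibrils, read -0.29 and 0.39 on the Rb-deficient arrays, against -1.46 and -2.44 on the wild type arrays. This was a difference of 2.00 with a standard error of 0.47 (limma, adjusted p 0.70), without overlap. Vtn, the adhesive protein vitronectin, differed by -1.25. The list of TGF-beta and PDGF ligands and receptors, which drive matrix production in fibroblasts, also held Smad3, Smad7 and Ccn2. Of its 13 genes tested, 5 were higher, 8 lower and 0 called. Tgfbr2, the type II TGF-beta receptor, read -0.35 and 0.57 on the Rb-deficient arrays, against -0.75 and -0.61 on the wild type arrays, and Pdgfc, a PDGF ligand, differed by -0.52. Of 10 matrix proteases and inhibitors outside the list 4 were higher, 6 lower and 0 called, with a median of -0.05, and the metalloproteinase Mmp23 differed by 0.40. Another metalloproteinase, Mmp12, was well above background on both wild type arrays but only 1 of the Rb-deficient arrays.

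Markers of the cells that make or surround the matrix are given beside these values. Fibroblast markers outside the list, 10 of 14 tested, stood at a median of -0.14 relative to the wild type mean on Rb-deficient array 1, and of -0.01 on array 2, and Fbln1, Twist1 and Twist2 were not well above background on any array. Endothelial markers, 12 of 12 tested, were all higher on Rb-deficient array 2 than on array 1, with medians of 0.37 and -0.04. Pericyte and smooth muscle markers, 12 of 12 tested, were higher on Rb-deficient array 2 in 10, with medians of 0.25 and -0.26. Between groups this list split into 6 higher and 6 lower, with a median difference of -0.03. Cnn1, the calponin of smooth muscle, passed the filter through wild type alone, was not well above background on either Rb-deficient array and was at least 4.25-fold lower there. Myh11, a smooth muscle myosin, differed by -0.64, while Acta2, Rgs5 and Kcnj8, named after their values were seen, differed by 0.31, 0.39 and 0.89. Macrophage markers, 13 of 13 tested, had a median of 0.32 on the first Rb-deficient array and of 1.42 on the second, with 11 of 13 higher on the second. Their summed signal went the other way, at 51.0 and 43.9 on Rb-deficient arrays 1 and 2, against 46.5 and 45.1 on the wild type arrays. Itgam, named after its values were seen, read 5.23 and 4.43 on the Rb-deficient arrays. Clec3b and Dpt among the fibroblast markers and Cldn5 among the endothelial markers passed the filter through wild type alone. Fcgr1, a macrophage marker, passed through Rb-deficient alone.

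Exocrine and endocrine markers went the other way between the Rb-deficient mice. Acinar markers, 12 of 12 tested, were all lower on Rb-deficient array 2 than on array 1, with medians of -1.13 and -0.32. Their summed signal was 6613 and 3796 times the 75th percentile on the Rb-deficient arrays, against 8848 and 7271 on the wild type arrays. Beta cell markers, 10 of 10 tested, had a median of 0.14 on the first Rb-deficient array and of -0.08 on the second, with summed signal of 3408 and 2435 on the Rb-deficient arrays, against 3519 and 3152 on the wild type arrays. Alpha cell markers, 5 of 5 tested, had medians of -0.48 and -1.19 on Rb-deficient arrays 1 and 2, and Schwann cell markers, 5 of 7 tested, of -0.18 and 0.33. Of 5 mesothelial markers 2 were tested, and Lrrn4, Upk3b and Wt1 had no signal well above background. Endothelial markers summed to 39.5 and 48.8 on the Rb-deficient arrays, against 38.5 and 38.7 on the wild type arrays. The Rb-deficient mouse with the higher fibrillar collagen signal was thus also the one with higher medians of endothelial, pericyte and macrophage markers and a lower median of acinar markers. The part of these in the matrix values was not tested.

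**Figure D5:**
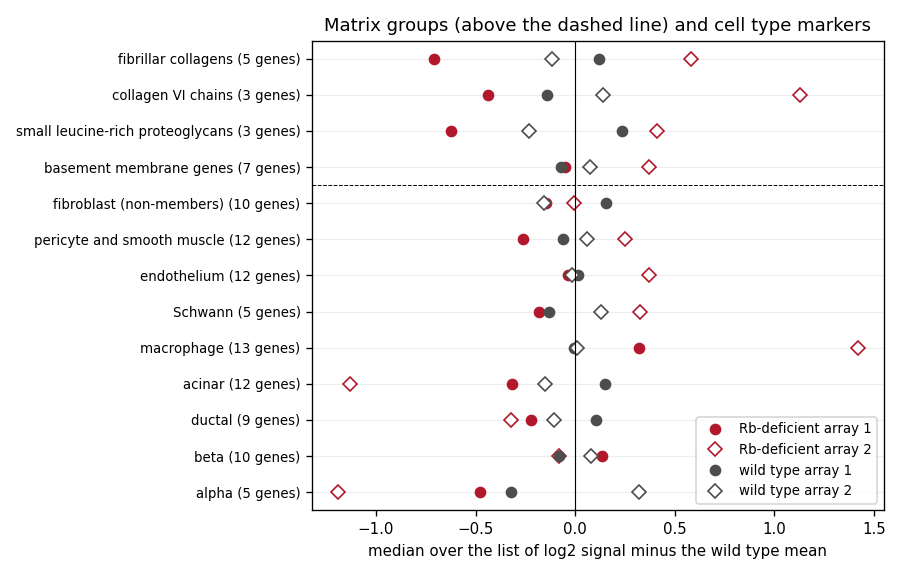
Median over each list of log2 signal minus the wild type mean (x axis) on every array, for matrix groups above the dashed line and cell type marker lists below it, with the number of genes tested in brackets. Rb-deficient array 2 (open red diamonds) lies right of Rb-deficient array 1 (filled red circles) for fibrillar collagens, collagen VI, endothelium and macrophage markers and left of it for acinar and alpha cell markers.

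Promoter windows of 300 bases were found for 22 of the 38 genes, 25 windows in all. GC boxes (GGGCGG) were in 16 of the 25 windows, or 64%, against 35.7% of all 32851 windows in the table. CCAAT boxes were in 11, or 44%, against 37.4% of all windows, and TATA boxes (TATAAA) in 2, or 8%, against 13.6%. None of the 25 held an E2F-like site spelled TTTCCCGC, TTTGGCGC or TTTCGCGC, which 1.84% of all windows did. Both strands were searched, and a missing match says only that these letters are not in the window.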

How the data were processed

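Deposited intensity values, 1 file per array, were those of Agilent Feature Extraction 12.0.3.1, per the file headers, which name a single-colour protocol that gives a background-corrected processed signal. The authors' deposited table of processed values was the same signal times a constant for each array, and served as an alternative. Processed intensity was divided by each array's 75th percentile over non-control spots and put on the log2 scale, and spots of a probe were averaged, outlier spots left out. Of 56605 probes, 32994 (58.3%) were named through RefSeq accessions. Probes were kept that had a value on all arrays and were well above background on both arrays of a group, and the brightest probe stood for a gene. The 26378 genes were fitted together with limma 3.58.1 in R 4.3.3 (lmFit, eBayes), and p-values were adjusted by Benjamini-Hochberg, with 0.05 as the threshold. The script was tested on simulated data. The normexp alternative used the median spot signal with an offset of 50.

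The 4 samples form 2 groups of 2 mice. The members and lists were chosen with earlier results of these data known. All members are accounted for, and of each other list the genes with the smallest p are named. Alternatives were other background corrections, scalings, filters and probe rules, a replicate block, and leaving out each array. The number of arrays limits the precision. The read-outs of sequence come from RefSeq windows on GRCm38.p6, a build other than that of the array design.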

Additional observations from a re-analysis of the deposited data

How the results depend on the processing

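The count of genes called was 0 with the 75th percentile and under every alternative run except scaling by the array median, which called 480 genes, 234 higher and 246 lower in Rb-deficient islets, Col6a3 among them, and moved the median of all genes to 0.37 in place of -0.07. Under that scaling the basement membrane median was 0.61, against 0.02 with the mean of a gene's probes, and 26 of the 32 matrix genes were higher in mean, against 22 with quantile normalization and 16 with the 75th percentile. Leaving out 1 array at a time, the median of the matrix genes ran from -0.49 to 0.42, that of the fibrillar collagens from -0.71 to 0.58, that of the basement membrane genes from -0.05 to 0.37 and that of the collagen VI chains from -0.44 to 1.13. Without Rb-deficient array 1, 24 of 32 were higher, and without Rb-deficient array 2, 8 of 32. The unadjusted count of p under 0.05 was 1493, and 829 to 3975 with 1 array left out, where the lone array is assumed to vary like the other group. Signs turned with normexp background correction for Dcn at 0.022, with quantile normalization for Col1a1 at 0.40, Col5a1 at 0.38, Col5a3 at 0.44, Lama4 at 0.0084, Lum at 0.19 and Fbn1 at 0.48, with array median scaling for Col1a1 at 0.34, Col1a2 at 0.30, Col5a1 at 0.21, Col5a3 at 0.44, Lama4 at 0.36, Dcn at 0.35, Lum at 0.23, Fbn1 at 0.23, Timp2 at 0.27 and Thy1 at 0.41, with the mean of a gene's probes for Col1a1 at 0.012, Lamb1 at -0.15, Lamc1 at -0.17 and Postn at -0.082, and with the deposited value table for Col18a1 at -0.014. Leaving out 1 array turned the sign of 21 genes, whose log2 differences ran over these ranges: Col1a1 -0.78 to 0.58, Col1a2 -0.71 to 0.44, Col5a1 -0.85 to 0.39, Col5a3 -0.62 to 0.62, Lama4 -0.23 to 0.081, Dcn -0.62 to 0.46, Lum -0.83 to 0.41, Bgn -0.28 to 0.35, Timp2 -0.58 to 0.23, Thy1 -0.72 to 0.66, Col3a1 -0.16 to 0.94, Col6a1 -0.44 to 1.13, Col6a2 -0.53 to 0.90, Col4a2 -0.054 to 0.53, Col18a1 -0.69 to 0.72, Lamc1 -0.19 to 0.30, Nid1 -0.015 to 0.37, Sparc -0.10 to 0.81, Lamb1 -0.066 to 0.41, Fbn1 -0.65 to 0.23 and Mfap5 -2.41 to 0.0081. The other 11 kept their sign, over Col6a3 2.45 to 3.09, Col4a1 0.36 to 0.40, Col8a1 -0.86 to -0.50, Col14a1 -2.18 to -0.81, Col16a1 0.30 to 1.65, Fn1 0.26 to 0.63, Postn 0.41 to 0.92, Eln -2.86 to -0.65, Loxl1 -1.30 to -0.23, Loxl2 -1.38 to -0.31 and Timp1 0.38 to 0.76. The cause was not tested. Counts of matrix genes higher on Rb-deficient array 2 than on array 1, an alternative chosen after seeing the data, were 26 to 29 of 32 wherever 32 were tested, and 34 of 38 with no filter. With the replicate number as a block, the fit called 0 genes and 3160 had an unadjusted p under 0.05, and the medians were as without it. Deviations of same-numbered arrays from their group means, not the signals themselves, correlated at 0.30 across genes. The labels give the numbers no shared source. A slide block could not be fitted, since all arrays lay on 1 slide. With 2 arrays a group an exact permutation test cannot go below 0.333, and signal not well above background limits Eln and the 6 genes not tested.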
